A study of Mus musculus with 12 samples.

Results

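The collagen gene family was followed in tongue tumours of carcinogen-treated mice and in normal tongue of control mice. Members were the genes whose symbol on the array reads Col, a number, the letter a and a number, leaving out Col17a1, with 1 probe per gene, the one with the highest mean log2 signal. This gave 36 genes of the 16593 that have a probe: 11 fibrillar, 8 of the basement membrane (the type IV chains with types XV and XVIII) and 17 others. The 7 tumours came from B6 mice that received 4NQO (4-nitroquinoline 1-oxide, a carcinogen that damages DNA) at 200 µg/mL together with arecoline (an alkaloid of the areca nut) at 500 µg/mL, and the 5 normal tongues came from B6 mice that received DMSO. Both treatments ran for 8 weeks, a 20-week rest followed, and the stated age is 8 months for every sample. RNA of each piece was hybridised to 1 Illumina bead array. Nothing in the labels says that the pieces came from separate animals, so the p-values reflect how much these pieces vary, and that variation may be technical in part. The labels call the tumour tissue tongue tumor and give no histology.

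Collagens are secreted proteins of 3 chains wound into a triple helix. Fibrillar collagens such as type I and type III assemble into the cable-like fibrils of connective tissue. Type IV collagen forms the sheet-like network of basement membranes, which lie under epithelium and around vessels, nerves and muscle fibres. Types XV and XVIII are proteoglycans of basement membrane zones. Type VII makes the anchoring fibrils that tie the basement membrane of stratified epithelium to the tissue beneath. In tongue, muscle, fibroblasts, vessels and stratified epithelium all contribute collagen.

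The start regions of 6 members are shown, of which only Col4a1 and Col4a2 were compared with each other as a pair. Col4a1 and Col4a2 lie head to head and encode the 2 chains of the common type IV trimer. Col4a4 lies head to head with Col4a3, Col7a1 had the largest rise, and Col1a2 and Col3a1 are fibrillar genes that did not pass the test. Each sequence is a window of 300 bases that ends 50 bases after the annotated start, written 5′ to 3′ on the strand of the gene, from RefSeq on build GRCm38.p6: Col4a1 chr8:11312777-11313076 (minus strand), Col4a2 chr8:11312555-11312854 (plus), Col4a4 chr1:82586800-82587099 (minus), Col7a1 chr9:108953336-108953635 (plus), Col1a2 chr6:4505368-4505667 (plus) and Col3a1 chr1:45311288-45311587 (plus). Capitals mark matches, on either strand, to CCAAT (the CCAAT box), GGGCGG (the GC box), TATAAA (the TATA box) and TGACTCA (the AP-1 site).
Col4a1: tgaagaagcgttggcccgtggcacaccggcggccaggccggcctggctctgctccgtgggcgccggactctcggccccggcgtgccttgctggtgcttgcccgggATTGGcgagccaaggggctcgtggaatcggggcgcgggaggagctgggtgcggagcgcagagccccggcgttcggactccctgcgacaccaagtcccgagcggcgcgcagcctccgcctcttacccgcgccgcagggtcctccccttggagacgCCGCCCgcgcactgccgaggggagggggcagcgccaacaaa
Col4a2: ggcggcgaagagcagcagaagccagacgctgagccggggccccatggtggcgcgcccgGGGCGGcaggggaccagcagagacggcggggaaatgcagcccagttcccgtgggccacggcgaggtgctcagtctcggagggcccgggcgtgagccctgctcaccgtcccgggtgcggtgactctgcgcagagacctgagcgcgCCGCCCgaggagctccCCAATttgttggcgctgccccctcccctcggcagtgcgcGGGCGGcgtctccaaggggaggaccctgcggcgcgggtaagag
Col4a4: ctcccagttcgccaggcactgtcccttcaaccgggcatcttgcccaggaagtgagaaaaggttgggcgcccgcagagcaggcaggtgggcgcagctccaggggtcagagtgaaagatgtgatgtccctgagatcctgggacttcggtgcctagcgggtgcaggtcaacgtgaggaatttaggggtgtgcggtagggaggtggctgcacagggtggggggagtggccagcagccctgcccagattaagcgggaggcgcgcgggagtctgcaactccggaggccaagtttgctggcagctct
Col7a1: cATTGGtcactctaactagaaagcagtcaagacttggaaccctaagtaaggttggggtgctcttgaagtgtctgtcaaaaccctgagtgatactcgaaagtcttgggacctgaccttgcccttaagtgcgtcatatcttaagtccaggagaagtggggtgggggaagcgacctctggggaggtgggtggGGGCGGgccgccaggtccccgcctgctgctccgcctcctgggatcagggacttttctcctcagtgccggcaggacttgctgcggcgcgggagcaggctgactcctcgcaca
Col1a2: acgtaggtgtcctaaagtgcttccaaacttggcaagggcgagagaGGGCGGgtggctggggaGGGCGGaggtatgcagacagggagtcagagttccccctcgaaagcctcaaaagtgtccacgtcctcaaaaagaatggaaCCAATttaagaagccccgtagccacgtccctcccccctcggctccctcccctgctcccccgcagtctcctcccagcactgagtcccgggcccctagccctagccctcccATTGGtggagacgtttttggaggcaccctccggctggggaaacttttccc
Col3a1: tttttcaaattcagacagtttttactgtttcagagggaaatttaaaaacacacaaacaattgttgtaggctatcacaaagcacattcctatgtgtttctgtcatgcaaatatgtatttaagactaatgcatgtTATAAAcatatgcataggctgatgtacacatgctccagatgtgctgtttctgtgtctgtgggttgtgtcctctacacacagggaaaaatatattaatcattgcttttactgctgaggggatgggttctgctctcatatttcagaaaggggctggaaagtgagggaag
The windows of Col4a1 and Col4a2 overlap by 78 bases. Both hold a CCAAT match and a GC box match, as do those of Col7a1 and Col1a2, whereas the window of Col3a1 has a TATA match and that of Col4a4 none of the 4 motifs. Of the 36 members, 29 matched a window in the table. A gene was counted when any of its windows held the motif, since some genes have more than 1 start. CCAAT occurred in 11 of these 29 genes, against 41.1% of all 27025 genes in the table, and GGGCGG in 19 of 29, against 38.2%. TATAAA occurred in 4 of 29, against 15.7% of all genes, and TGACTCA in 1 of 29 (Col6a1), against 5.95%. Per window, the shares over all 32851 windows were 37.4% for CCAAT, 35.7% for GGGCGG, 13.6% for TATAAA and 5.20% for TGACTCA. A match is a stretch of letters and does not show that a factor binds there.

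Basement membrane genes made up 4 of the 8 collagens that rose, beside Col7a1, Col16a1, Col1a1 and Col2a1. A gene was counted as measured when its probe lay above the background threshold on at least 5 arrays, and 23 of the 36 members were measured. Of these 23, 8 rose in tumours, 4 fell and 11 were not called (limma, Benjamini-Hochberg adjusted p under 0.05). Over all 10787 genes tested, 32.5% were higher in tumours, 23.6% lower and 56.1% called in either direction. The family's shares of 34.8% higher, 17.4% lower and 52.2% in either direction were near this background. The median change was 0.10 on the log2 scale for the measured collagens and 0.07 for all genes. Tumour and normal values did not overlap for 8 of 23 collagens (6 with tumours above, 2 with tumours below), against 37.9% of all genes (21.0% above and 16.9% below). Within the family, 4 of 6 measured basement membrane genes rose and 1 fell (median 1.27), 2 of 8 fibrillar genes rose and 1 fell (median 0.12), and 2 of 9 others rose and 2 fell (median -0.08).

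Scaling bears on these directions. In the quantile-normalised data, 7 of 9 reference genes were called higher in tumours (median 0.57), so they were not level between the groups. With each array centred on the mean of these 9 reference genes, the median change of all genes moved to -0.51. In that setting 6 collagens were called higher and 13 lower, beside 843 higher and 7174 lower of all 10787 genes. The 6 that stayed higher there were Col7a1 (2.18), Col18a1 (1.90), Col4a1 (0.97), Col4a2 (0.94), Col1a1 (0.76) and Col15a1 (0.50). Measured from that shifted median, Col4a1 was at 1.47 and Col1a1 at 1.27. The share of called genes that were higher was 58.0% in the quantile-normalised data, 46.3% under cyclic loess and 10.5% under centring on reference genes.

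**Figure D1:**
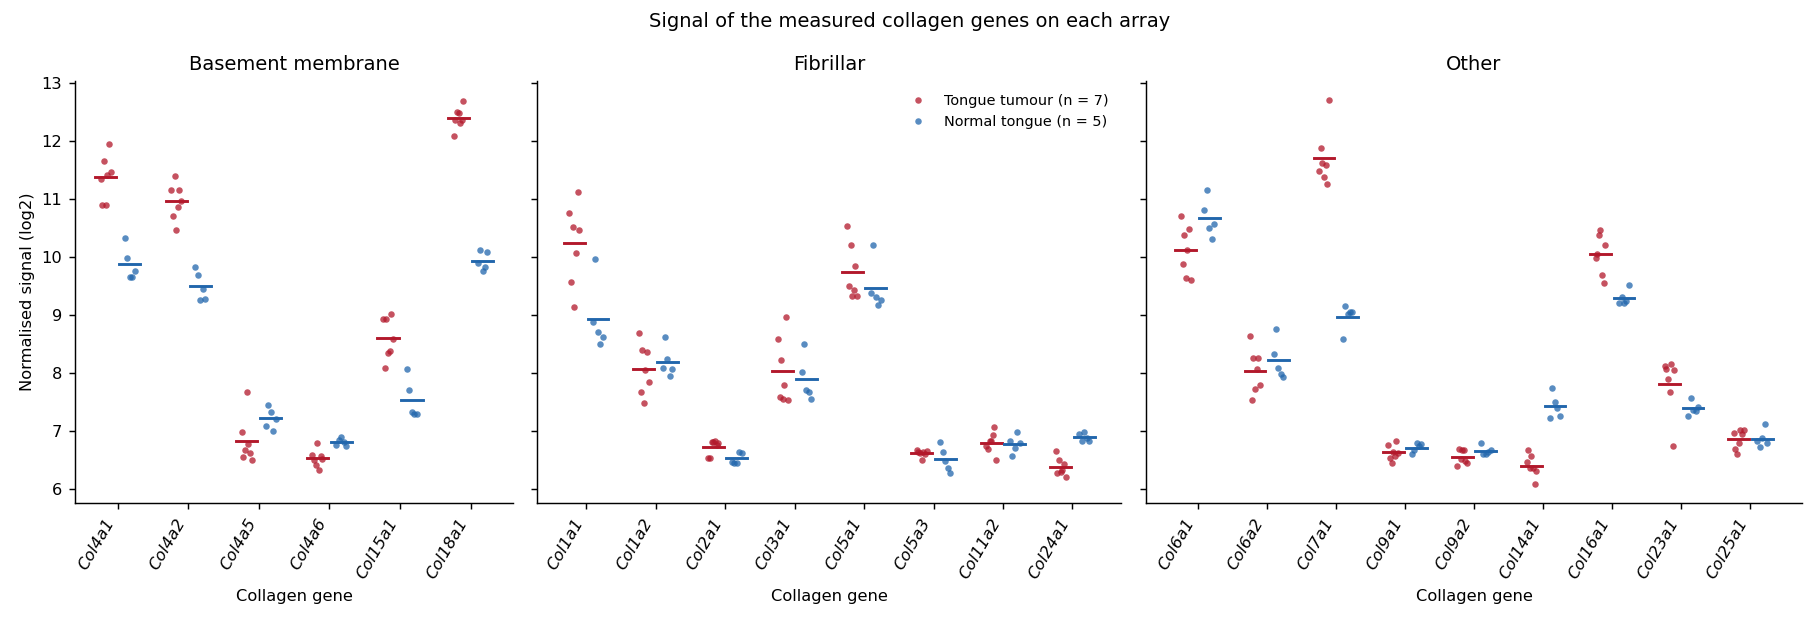
Normalised log2 signal of the 23 measured collagen genes, with tumours (red, n = 7) left of normal tongues (blue, n = 5). Points are arrays and bars are group means. Col4a1, Col4a2, Col15a1, Col18a1, Col7a1 and Col16a1 have all tumours above all normals, and Col14a1 and Col24a1 all tumours below. Heights of different genes cannot be compared, because each has its own probe.

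The network-forming type IV chains of ubiquitous basement membranes rose together. Col4a1 (probe ILMN_2621643) had a log2 signal of 10.91 to 11.96 in tumours with a median of 11.42, against 10.33, 9.99, 9.66, 9.66 and 9.76 in normal tongues 1 to 5. Every tumour lay above every normal tongue, and tumours 2 and 4 were the lowest of the tumours. The change was 1.50 (SE 0.19), a 2.84-fold rise (adjusted p = 1.95e-05). Col4a2 (probe ILMN_2822579), the partner chain, ran from 10.47 to 11.41 in tumours with a median of 10.97, against 9.83, 9.69, 9.27, 9.45 and 9.29 in normals. It rose 2.75-fold (log2 1.46, SE 0.16, adjusted p = 5.90e-06), again without overlap.

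Type XVIII collagen, whose C-terminal fragment is endostatin, rose most within the basement membrane group. Col18a1 (probe ILMN_2735184) had 12.09 to 12.69 in tumours, median 12.37, against 9.90, 10.13, 9.76, 9.84 and 10.09 in normals. The tumours were close to each other (SD 0.19) and far above the normals, a 5.50-fold rise (log2 2.46, SE 0.10, adjusted p = 1.65e-08). Of its other probes, 1 was measured in both groups and had a mean 1.83 higher in tumours without overlap. The other was above background in 6 of 7 tumours and 0 of 5 normals, which makes it at least 1.14-fold higher in tumours. Col15a1 (probe ILMN_1222111), the related type XV chain found around muscle fibres and vessels, ran from 8.09 to 9.02 in tumours with a median of 8.59, against 8.07, 7.72, 7.34, 7.30 and 7.30 in normals. The groups were barely separate, since tumour 2 at 8.09 lay just above normal 1 at 8.07. Col15a1 rose 2.10-fold (log2 1.07, SE 0.19, adjusted p = 3.41e-04).

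The minor type IV chains did not share this rise. Col4a6 (probe ILMN_1254059), a chain of epithelial and smooth muscle basement membranes, had 6.34 to 6.80 in tumours with a median of 6.53, against 6.77, 6.85, 6.90, 6.82 and 6.74 in normals. It fell (log2 -0.28, SE 0.08, adjusted p = 0.00810) while being above background in 5 of 7 tumours and 5 of 5 normals, and all but tumour 4 lay below the normals. Its other measured probe differed by -0.07 with overlap, and the mean over probes gave -0.17. Col4a5 (probe ILMN_2734755), its partner on the X chromosome, had 6.50 to 7.68 in tumours with a median of 6.67, against 7.10, 7.46, 7.33, 7.01 and 7.22 in normals. Tumour 4 was the highest of all arrays and the other 6 tumours lay below the normals. Its change of -0.40 (SE 0.18, adjusted p = 0.0781) was not called. It was called lower without tumour 4 (-0.54, adjusted p = 0.00106), and over all arrays with array weights (-0.37, adjusted p = 0.0480), centring on the 75th percentile (-0.45, adjusted p = 0.0447) and centring on reference genes (-0.99, adjusted p = 2.36e-04).

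Col4a3 and Col4a4, whose chains join that of Col4a5 in specialised basement membranes such as that of the kidney glomerulus, were above background in tumours 2 and 4 and on no other array. Col4a3 (probe ILMN_1213850) had 7.33 in tumour 2 and 7.32 in tumour 4, at most 6.47 in the other tumours, and 6.47, 6.22, 6.36, 6.31 and 6.18 in normals. Col4a4 (probe ILMN_2679871) had 6.78 in tumour 2 and 6.65 in tumour 4, at most 6.43 in the other tumours, and 6.34, 6.37, 6.38, 6.21 and 6.40 in normals. Its other probe also stood out in these tumours, at 7.23 and 6.90. With 2 arrays above background neither gene entered the test. The mean log2 signal of skeletal muscle markers was 13.0 in tumour 2 and 11.44 in tumour 4, against 8.69 to 10.35 in the other tumours and 13.74 to 14.29 in normals. That of salivary gland markers was 9.80 in tumour 2 and 6.6 in tumour 4, against 6.39 to 6.6 in the other tumours. It was 13.32 in normal 1 and 7.02 to 7.69 in the other normals. The part of these markers in the Col4a3 and Col4a4 signal was not tested.

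**Figure D2:**
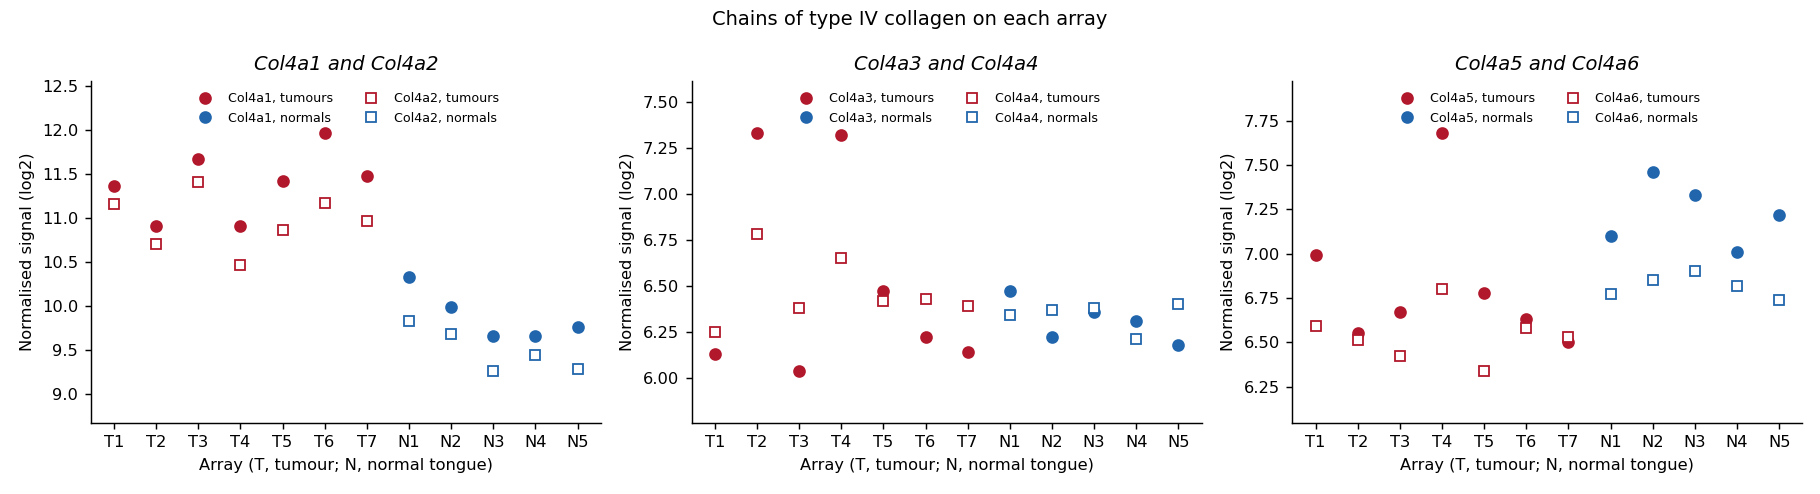
Log2 signal of the 6 type IV chains on each array, tumours T1 to T7 (red) left of normal tongues N1 to N5 (blue), in pairs of chains that are neighbours in the genome. Col4a1 and Col4a2 are higher in all tumours, Col4a3 and Col4a4 stand out in tumours 2 and 4, and Col4a5 and Col4a6 are lower in the tumours other than tumour 4. The vertical scales differ between panels.

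Fibrillar collagens showed 1 large change. Col1a1 (probe ILMN_2687872), the main chain of type I collagen, had 9.14 to 11.13 in tumours with a median of 10.47, against 8.88, 9.98, 8.72, 8.50 and 8.63 in normals. Normal 2 stood above the other normals and lay within the range of the tumours. Col1a1 rose 2.46-fold (log2 1.30, SE 0.34, adjusted p = 0.00589), and by 1.56 without normal 2. Col1a2 (probe ILMN_1253806), the other chain of the type I trimer, had 7.49 to 8.69 in tumours with a median of 8.05, against 8.09, 8.62, 8.24, 7.96 and 8.08 in normals. Its change was -0.13 (SE 0.20, adjusted p = 0.624). Col3a1 (probe ILMN_1258629), which forms the thin fibrils of skin, vessels and wounds, had 7.54 to 8.97 in tumours with a median of 7.79, against 8.02, 8.50, 7.72, 7.67 and 7.56 in normals. Its change was 0.14 (SE 0.27, adjusted p = 0.680), and both groups covered much the same range.

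Type V and the cartilage-associated fibrillar collagens gave small values. Col5a1 (probe ILMN_2748402), which helps set fibril diameter, had 9.33 to 10.54 in tumours with a median of 9.50, against 9.38, 10.21, 9.32, 9.18 and 9.27 in normals. The change was 0.27 (SE 0.24, adjusted p = 0.363). Col24a1 (probe ILMN_2857666), a fibrillar collagen of developing bone in the mouse, fell without overlap, with 6.22 to 6.66 in tumours and a median of 6.34, against 6.96, 6.83, 6.99, 6.89 and 6.84 in normals (log2 -0.51, SE 0.08, adjusted p = 1.42e-04). It was above background in 2 of 7 tumours and 5 of 5 normals. Col24a1 thus passed the signal filter only through the normals, where it is high, so its p-value is no separate support for the fall. Its next probe, above background in 4 of 7 tumours and 5 of 5 normals, also fell without overlap (difference of means -0.52), under the same limit. Col2a1 (probe ILMN_2759142), the main collagen of cartilage, had 6.54 to 6.83 in tumours with a median of 6.79, against 6.47, 6.46, 6.45, 6.65 and 6.63 in normals. These values lay near the threshold, with 2 of 5 normals above background, and the groups overlapped. The rise of 0.20 (SE 0.08, adjusted p = 0.0431) lost its call under 12 of 23 other settings and turned to -0.40, called lower, under centring on reference genes, and the other probe had a difference of 0.04. Col5a3 (0.10) and Col11a2 (0.02) were not called, and Col5a2, Col11a1 and Col27a1 were above background on at most 2 arrays.

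Among the other collagens type VII stood out. Col7a1 (probe ILMN_2901944) had 11.26 to 12.71 in tumours with a median of 11.60, against 8.59, 9.16, 9.02, 9.05 and 9.05 in normals. All tumours lay above all normals by a wide margin, with tumour 7 highest and normal 1 lowest. The rise was 6.67-fold (log2 2.74, SE 0.21, adjusted p = 4.09e-07), the largest of the 23 measured collagens. The other Col7a1 probe was above background in 7 of 7 tumours and 0 of 5 normals, which makes it at least 2.73-fold higher in tumours.

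Col16a1 rose and Col14a1 fell, each without overlap. Col16a1 (probe ILMN_1248099), of the fibril-associated family, had 9.56 to 10.47 in tumours with a median of 10.05, against 9.22, 9.31, 9.21, 9.24 and 9.53 in normals, and rose 1.68-fold (log2 0.75, SE 0.15, adjusted p = 9.53e-04). Under centring on reference genes Col16a1 had 0.22 and was not called (adjusted p = 0.275). Col14a1 (probe ILMN_2591027), which binds fibril surfaces and limits their growth, had 6.09 to 6.68 in tumours with a median of 6.36, against 7.23, 7.75, 7.51, 7.41 and 7.27 in normals. It fell to below every normal (log2 -1.03, SE 0.11, adjusted p = 7.03e-06). With 4 of 7 tumours below background, the size of this fall is less certain than its direction. Col14a1 also passed the signal filter only through the normals, where it is high, so its p-value is no separate support for the fall.

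Type VI collagen forms beaded microfibrils around muscle fibres and other cells. Col6a1 (probe ILMN_2768087) had 9.61 to 10.72 in tumours with a median of 10.13, against 10.81, 11.16, 10.51, 10.31 and 10.58 in normals. The groups overlapped, and the fall of -0.55 (SE 0.21, adjusted p = 0.0395) was close to the threshold and lost its call under 15 of 23 other settings, with log2 -1.06 to -0.43 over all 23. Its other measured probe differed by -0.34, also with overlap. Col6a2 (probe ILMN_1216661) had 7.54 to 8.65 in tumours with a median of 8.07, against 8.33, 8.76, 8.09, 7.99 and 7.94 in normals, a change of -0.17 (SE 0.20, adjusted p = 0.479). Col23a1 (probe ILMN_2650447), a transmembrane collagen, had 6.74 in tumour 6 and 7.67 to 8.16 in the other tumours, against 7.27, 7.58, 7.36, 7.35 and 7.42 in normals. Its change of 0.42 (SE 0.21, adjusted p = 0.110) was called higher without tumour 6 (0.60, adjusted p = 2.04e-04), with array weights (0.49, adjusted p = 0.00701) and when replicate numbers were blocked (0.59, adjusted p = 0.00265), and was -0.16 under centring on reference genes. Col9a1 (-0.08), Col9a2 (-0.11) and Col25a1 (under 0.01 in size) were not called. Of the remaining 8, 7 were above background on no array (Col6a6, Col8a2, Col9a3, Col10a1, Col13a1, Col19a1 and Col26a1), and Col28a1 was above it in 1 normal tongue.

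**Figure D3:**
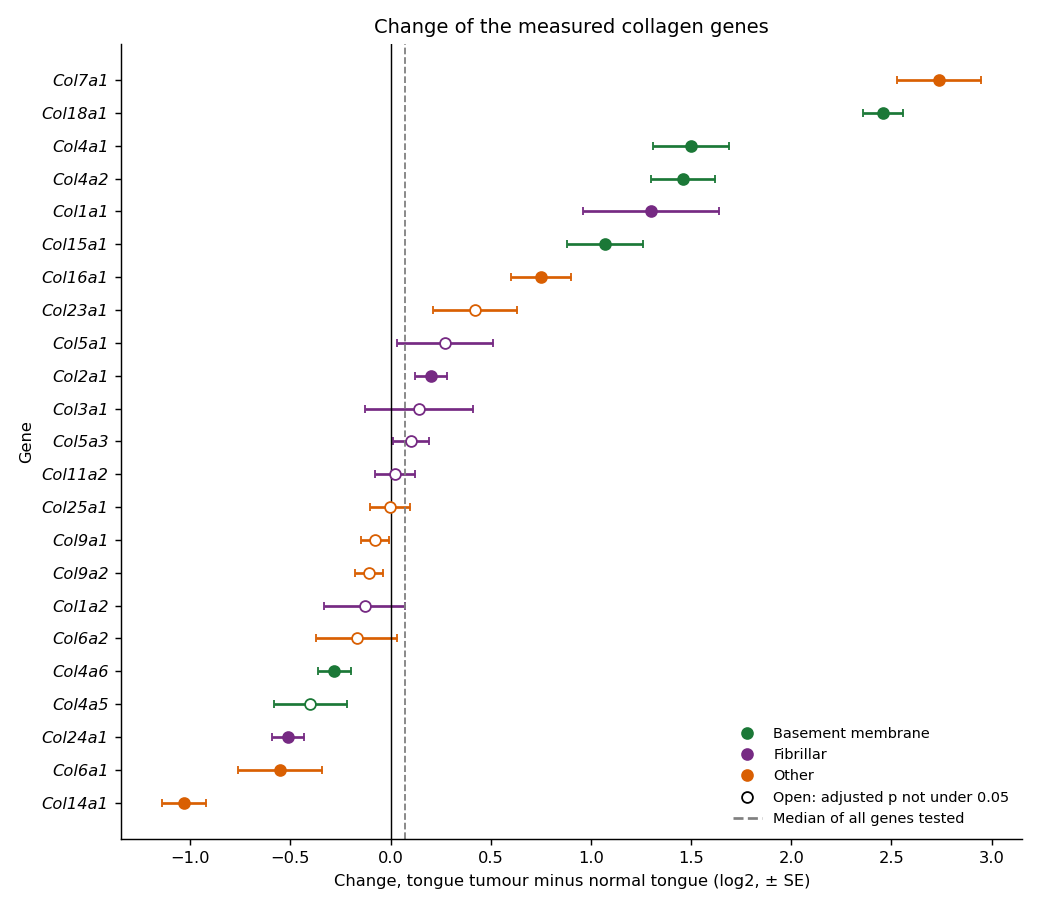
Change of the 23 measured collagen genes in log2, tumour minus normal, with SE from limma, sorted from the largest rise to the largest fall. Green marks basement membrane, purple fibrillar and orange other collagens, open circles did not pass the threshold, and the dashed line is the median of all genes (0.07). Col7a1 (2.74) and Col18a1 (2.46) lead, and Col14a1 (-1.03) is at the other end.

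Whether partner chains moved alike was tested on the per-array difference between the probes of a pair, with a two-sided exact permutation test over the 12 arrays and Benjamini-Hochberg adjustment over the 7 pairs in which both genes were measured. The smallest p that this test can give is 0.00126. Such a difference does not depend on how an array as a whole is scaled, and its level has no meaning of its own, so the contrast between groups is what counts. The difference was called for 4 of the 7 pairs.

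The chains of type I collagen moved apart, on 1 probe for each gene, so averaging over probes could not check this shift. Col1a1 minus Col1a2 was 2.17 ± 0.39 in tumours (SD, n = 7) and 0.74 ± 0.36 in normals (SD, n = 5), a shift of 1.42 (95% interval 0.93 to 1.90, exact permutation p = 0.00126, adjusted p = 0.00295) with tumours above normals on all arrays. Col1a1 minus Col3a1 shifted by 1.16 (0.72 to 1.61, exact permutation p = 0.00126, adjusted p = 0.00295). By contrast, the head-to-head pair Col4a1 and Col4a2 had a difference of 0.42 ± 0.22 in tumours (SD, n = 7) and 0.38 ± 0.12 in normals (SD, n = 5). The shift was 0.04, with an interval of -0.20 to 0.29 (exact permutation p = 0.717, adjusted p = 0.717). Col4a5 minus Col4a6 shifted by -0.12 (-0.45 to 0.23, exact permutation p = 0.458, adjusted p = 0.561).

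The related basement membrane chains differed in size of rise. Col15a1 minus Col18a1 shifted by -1.39 (-1.91 to -0.87, exact permutation p = 0.00126, adjusted p = 0.00295), so type XVIII rose more than type XV on these probes. With the mean over all measured probes of each gene the shift was -0.59 (adjusted p = 0.0501). Col6a1 minus Col6a2 shifted by -0.37 (-0.58 to -0.17, exact permutation p = 0.00379, adjusted p = 0.00663), and by -0.27 with the mean over probes (adjusted p = 0.0729). Col4a1 minus Col1a1, network against fibril, shifted by 0.21 (-0.34 to 0.81, exact permutation p = 0.481, adjusted p = 0.561), so a larger rise of type IV than of Col1a1 was not shown.

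**Figure D4:**
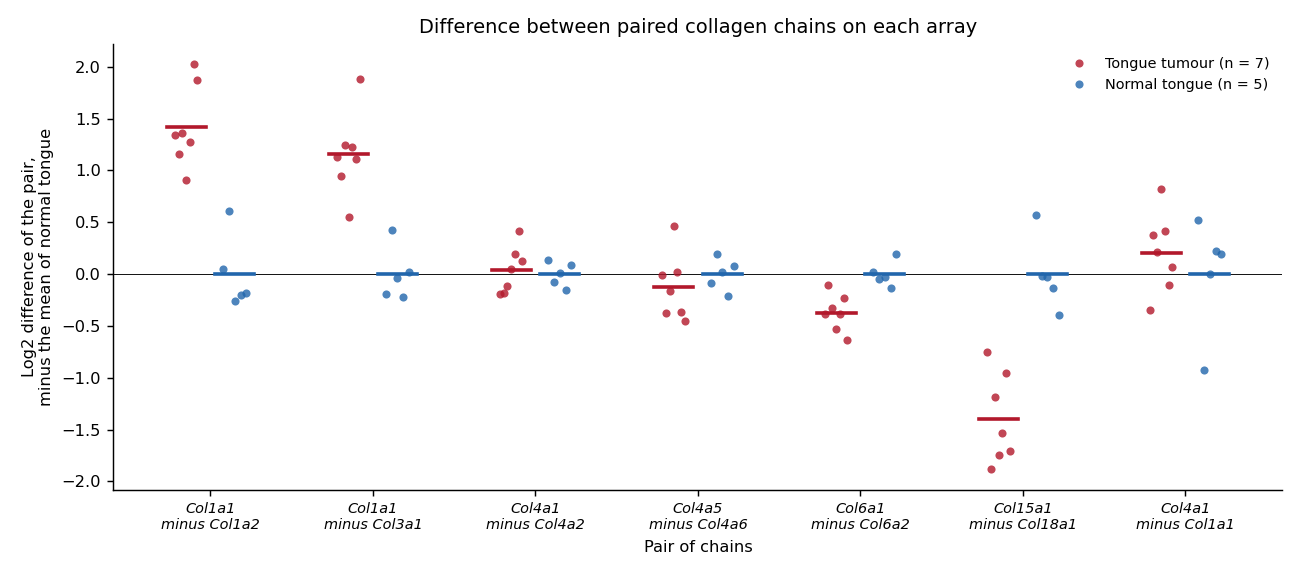
Per-array log2 difference between the probes of 7 pairs of collagen chains, shown relative to the mean of normal tongue, tumours (red, n = 7) left of normals (blue, n = 5). Bars are group means. Col1a1 minus Col1a2 and Col1a1 minus Col3a1 are higher in all tumours, Col15a1 minus Col18a1 is lower in all tumours, and Col4a1 minus Col4a2 is centred near 0 in both groups.

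For 9 of the 23 measured collagens (Col1a1, Col1a2, Col3a1, Col4a2, Col5a1, Col6a1, Col6a2, Col15a1 and Col24a1) tumours 1, 3 and 6 held the highest 3 values of the 7, as they did for 1.84% of all genes. In 6 of these 9 (Col1a1, Col1a2, Col3a1, Col5a1, Col6a1 and Col6a2) normal 2 was also the highest normal tongue, as for 23.6% of all genes. This pattern was noticed after the values were seen and was not tested. For Col24a1 tumour 6 was below background, so its place there is a rank of background signal. The mean log2 signal of fibroblast markers was 8.22, 8.45, 7.89, 7.47, 7.23, 7.46 and 7.20 in tumours 1 to 7, against 9.24 to 9.64 in normals. Endothelial markers averaged 8.64, 8.37, 8.64, 8.08, 8.30, 8.58 and 7.95 in tumours 1 to 7, against 9.13 to 9.25 in normals. The part of these markers in the order of the tumours was not tested. Col7a1 and Col18a1 did not share this order, both being highest in tumour 7.

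Of 20 genes listed for collagen folding and hydroxylation, 15 were measured, and 5 rose, 2 fell and 8 were not called (median 0.26), beside 32.5% higher and 23.6% lower over all genes. P3h4, part of a complex for lysine hydroxylation of collagen, had 9.46 to 10.98 in tumours, against 8.47 to 9.31 in normals, and rose by log2 0.98 (SE 0.25, adjusted p = 0.00460). Plod2, which hydroxylates lysines of the chain ends that take part in cross-links, had 7.48 to 8.53 in tumours, against 6.67 to 7.22 in normals, and rose by 0.97 (SE 0.18, adjusted p = 5.09e-04). Crtap, of the prolyl 3-hydroxylation complex, rose by 0.78 (SE 0.10, adjusted p = 3.20e-05), again with every tumour above every normal. Fkbp14, a prolyl isomerase of the endoplasmic reticulum, had a change of -0.38 and fell (SE 0.09, adjusted p = 0.00373). Under centring on reference genes the calls of P3h4 (0.46) and Plod2 (0.38) were lost.

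Genes of propeptide removal and cross-linking held the 2 largest falls among the 29 measured pathway genes. Of 13 listed, 6 were measured, and 2 rose, 3 fell and 1 was not called (median -0.44), beside 32.5% higher and 23.6% lower over all genes. Pcolce2, an enhancer of procollagen C-propeptide cleavage, had 7.06 to 8.68 in tumours with a median of 7.90, against 9.31, 10.19, 10.19, 10.40 and 10.53 in normals, and was 4.99-fold higher in normal tongue (log2 -2.32, SE 0.30, adjusted p = 3.01e-05). Its relative Pcolce had 7.17 to 8.34 in tumours with a median of 7.60, against 9.21, 9.22, 9.06, 9.14 and 9.02 in normals (log2 -1.48, SE 0.19, adjusted p = 2.72e-05). Both fell without overlap while Col1a1 rose on the same arrays. Bmp1, of the same list, rose by log2 0.80 (SE 0.17, limma adjusted p = 0.00154), with overlap between the groups. Lox, the lysyl oxidase that starts cross-linking, had 7.50 to 8.45 in tumours with a median of 8.10, against 7.21, 7.27, 6.82, 6.59 and 6.66 in normals, a 2.14-fold rise (log2 1.10, SE 0.18, adjusted p = 1.67e-04). Loxl1, a lysyl oxidase best known for elastin, had 8.53 to 10.17 in tumours with a median of 9.26, against 10.08, 10.59, 9.92, 10.08 and 9.97 in normals, and fell (log2 -0.82, SE 0.27, adjusted p = 0.0214), a call that was lost without normal 2 (-0.71, adjusted p = 0.0607) and when replicate numbers were blocked (-0.69, adjusted p = 0.0639).

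Of 11 genes for receptors and uptake, 8 were measured, and 4 rose, 2 fell and 2 were not called (median 0.20), beside the same 32.5% and 23.6% of all genes. Ddr1, the discoidin receptor of epithelial cells, had 11.17 to 12.04 in tumours, against 10.30 to 10.90 in normals, and rose 1.92-fold (log2 0.94, SE 0.17, adjusted p = 3.65e-04). Ddr2, the discoidin receptor of mesenchymal cells, was above background in 0 of 7 tumours and 5 of 5 normals. That makes it at least 1.11-fold higher in normal tongue (limma adjusted p = 3.97e-05). Ddr2 passed the signal filter only through the normals, where it is high, so this p-value is no separate support for the fall. The same limit holds for the rise of Itga2, above background in 6 of 7 tumours and 0 of 5 normals. Itga1, an integrin subunit that binds type IV collagen, had 7.50 to 9.0 in tumours, against 6.56 to 7.17 in normals, and rose by 1.09 (SE 0.23, adjusted p = 0.00136), or 0.51 and not called under centring on reference genes. Itga11, the fibrillar collagen integrin of fibroblasts, had 6.58 to 7.59 in tumours, against 8.17 to 8.58 in normals, and fell (log2 -1.11, SE 0.18, adjusted p = 2.17e-04).

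**Figure D5:**
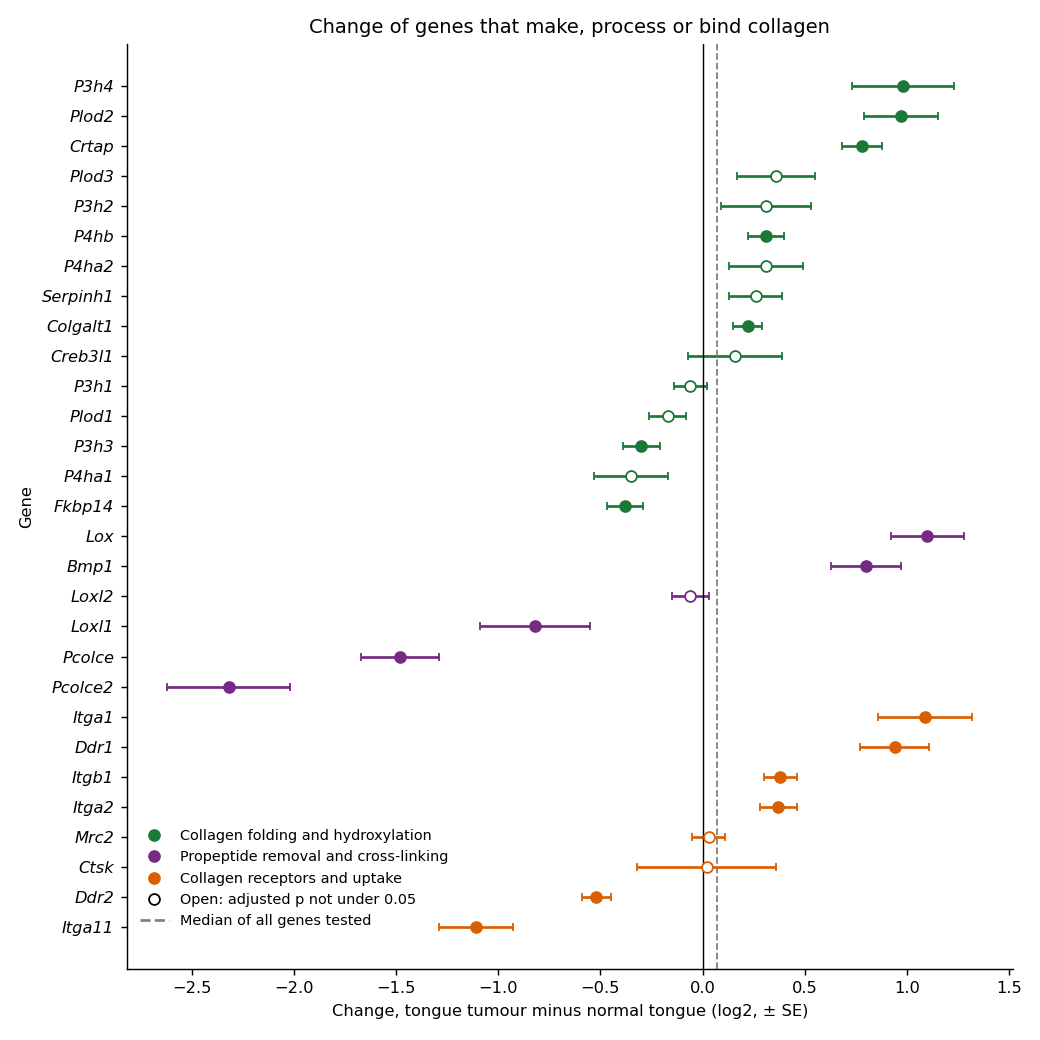
Change in log2, tumour minus normal with SE from limma, of the measured genes that fold and modify collagen (green), remove its propeptides or cross-link it (purple) and bind or take it up (orange). Open circles did not pass the threshold and the dashed line is the median of all genes (0.07). Lox (1.10) and Pcolce2 (-2.32) mark the range of the purple genes.

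Cell type markers differed between the groups, to be read beside the 32.5% of all genes that were higher in tumours and the 23.6% that were lower. Skeletal muscle markers fell in 11 of 11 measured genes, with a summed linear signal of 7425 to 159715 in tumours and 248600 to 287731 in normals. Fibroblast markers fell in 8 of 10 measured genes and rose in none, with a summed signal of 1820 to 4506 in tumours and 7772 to 10528 in normals, and none of the 10 was below background on every array. Endothelial markers fell in 8 of 9 measured genes (2815 to 4775 in tumours and 6546 to 7200 in normals). Squamous epithelium markers rose in 7 of 10 and fell in 2 (98411 to 127980 in tumours and 107170 to 114908 in normals). Of 7 measured markers of contractile fibroblasts and pericytes, 1 rose, 3 fell and 3 were not called (6563 to 27445 in tumours and 15372 to 20626 in normals). The one that rose was Acta2, smooth muscle actin, with 12.18 to 14.39 in tumours and 11.80 to 12.63 in normals (log2 1.02, SE 0.32, adjusted p = 0.0153). Leukocyte markers rose in 3 of 4 measured genes and fell in none (2135 to 9653 in tumours and 2310 to 3476 in normals). A further 4 of the 8 with a probe were not measured. Cd3d was above background in 7 of 7 tumours and 0 of 5 normals, and Cd3e in 7 of 7 and 1 of 5. Both passed the signal filter only through the tumours, where they are high, so their calls are no separate support for a rise. Of 4 measured Schwann cell markers 1 rose and 2 fell, of 3 cartilage markers 1 rose and 1 fell, and of 4 salivary gland markers 1 fell. The cartilage marker that rose was Sox9, above background in 7 of 7 tumours and 1 of 5 normals. The salivary gland marker that fell was Amy1, above background in 2 of 7 tumours and 5 of 5 normals. Sox9 and Amy1 passed the signal filter only through the group where they are high. A further 5 cartilage markers were not measured. Both labelled tissues thus carried the muscle and epithelial markers of tongue. In such bulk samples fewer cells of a type and less RNA per cell cannot be told apart, and the part of these markers in the collagen changes was not tested. Tumour 2 (9.80) and normal 1 (13.32) had the highest mean log2 signal of salivary gland markers. Without these 2 arrays, 8 collagens were higher and 3 lower, beside 3522 higher and 2474 lower of all 10787 genes.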

How the data were processed

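The authors deposited log2 signals for 25697 probes on 12 arrays, with every array at the same median; per the submitters' processing notes BeadStudio and Partek 6.6 were used, and further steps are not given in the sources used here. A table of 24 per-sample columns whose names match no label was not used. The log2 values were returned to the linear scale, background-corrected (normexp, offset 50) and quantile normalised. A probe was kept when above its array's background, the mode plus 1.64 SD of the side below it, on at least 5 arrays (15702 probes, 61.1%). Of the probes, 23978 carried 1 symbol, 1719 none and 0 several, and 23962 matched RefSeq (GRCm38.p6). Groups were compared with limma 3.58.1 in R 4.3.3 (two-sided, Benjamini-Hochberg over the probes kept, threshold 0.05), which was tested on simulated data. A fold is tumour over normal. For a probe above background on no array of 1 group the fold is a bound, from the lowest normalised signal above background. Pair intervals hold the shifts that the exact permutation test does not reject. Precision is limited by the 7 and 5 arrays per group.

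Members and lists were chosen with earlier results of these data known. Fibrillar and basement membrane members that passed the threshold or stand in a pair were named. So were up to 6 called genes of the other group, of which 4 were called, and up to 4 called genes per pathway list. Other members named were chosen after their values were seen. Of 44 collagens listed, 8 had no probe assigned here and were not analysed. Alternatives covered background correction, normalisation, filter, probe rule, array weights, replicate block and left-out arrays. No pairing of arrays by equal replicate numbers was seen (correlations of deviations -0.367 to 0.081), which does not exclude one. Plots were drawn with matplotlib 3.10.9.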

Additional observations from a re-analysis of the deposited data

Results flagged for a closer look

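In 35 named genes (70 groups), 10 values stood far from the rest of their group by Dixon's test, where chance gives about 1 in 20 groups. In tumours, Col4a5 was high in tumour 4 (7.68, others 6.50 to 6.99), Col7a1 was high in tumour 7 (12.71, others 11.26 to 11.88), Itga1 was high in tumour 3 (9.0, others 7.50 to 8.07), Col23a1 was low in tumour 6 (6.74, others 7.67 to 8.16) and Col5a3 was low in tumour 4 (6.50, others 6.6 to 6.68). In normals, normal 2 was high for Col1a1 (9.98, others 8.50 to 8.88), Col5a1 (10.21, others 9.18 to 9.38) and Loxl1 (10.59, others 9.92 to 10.08). Normal 1 was low for Col7a1 (8.59, others 9.02 to 9.16) and Pcolce2 (9.31, others 10.19 to 10.53). All values are log2 signals.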

How the results depend on the processing

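The rises of Col1a1, Col4a1, Col4a2, Col7a1, Col15a1 and Col18a1 and the falls of Col4a6, Col14a1 and Col24a1 kept direction and call in all 23 alternatives. Col14a1 and Col24a1 passed the signal filter of the main processing only through the normals. The count of higher collagens stayed between 6 and 9. Centring on reference genes gave 13 lower collagens, beside 7174 lower and 843 higher of all 10787 genes. It gave 3 higher and 15 lower genes over the pathway lists (11 and 7 with the main processing). It turned Col2a1 (-0.40), Col3a1 (-0.42), Col5a1 (-0.25), Col5a3 (-0.49), Col11a2 (-0.57) and Col23a1 (-0.16), by construction, since all genes shifted down. Col11a2 also turned under centring on the 75th percentile (-0.03) and cyclic loess (-0.005), and Col25a1 with the mean over probes (0.003) and without tumour 2 and normal 1 (0.01); the cause was not tested. The pair shifts of Col6a1 and Col6a2 (-0.27) and of Col15a1 and Col18a1 (-0.59) lost their call with the mean over probes. Leaving out single arrays gave -0.01 to 0.29 for Col3a1, -0.03 to 0.07 for Col11a2, -0.04 to 0.06 for Col25a1, -0.02 to 0.08 for Col4a1 minus Col4a2 and -0.02 to 0.34 for Col4a1 minus Col1a1. With the replicate number as a block, over 10 arrays, 8 collagens were higher and 3 lower, and 3140 and 2353 of all genes (3507 and 2544 without it); in 0 of 5 numbers did the normal and the tumour sharing it correlate best. A slide block was not run, since no slide is stated. Signals near background (about 6.5 in log2) compress changes, so small changes there are least certain.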

Other observations

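Colgalt2, which adds galactose to collagen hydroxylysine, was above background in 0 of 7 tumours (5 arrays were needed for the test) and in 4 of 5 normals. Its log2 signal was 6.01 to 6.31 in tumours and 6.35 to 6.71 in normals, so the groups did not overlap. It was singled out after its values were seen and was not tested.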
